A study of Homo sapiens with 11 samples.

Results

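The genes described here are CD44, a cell surface receptor of hyaluronan, with the 3 hyaluronan synthases HAS1, HAS2 and HAS3 and the 3 hyaluronidases HYAL1, HYAL2 and HYAL3. They were taken by name, 7 of the 25590 genes in the deposited tables. PC-3 cells derive from a human prostate carcinoma. They were injected with matrigel under the skin of male nude mice (strain Crl:NU-Foxn1nu, which lacks a thymus) at 8 weeks of age, and treatment began after 7 days of growth. Sequenced were 6 tumours from mice given A2M by repeated intraperitoneal injections of 5.6 mg and 5 tumours from mice given PBS as control. A2M is alpha-2-macroglobulin, a plasma proteinase inhibitor, here in the transformed form that binds the receptor LRP1. All tumours came from 1 cell line grown in immunodeficient hosts, and only the reads that the authors assigned to human were used, not those assigned to the mouse host. Tumours are called by the numbers in their labels, T123 to T127 in the PBS group and T128 to T132 with T112 in the A2M group.

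Hyaluronan is a long unbranched sugar polymer of the extracellular matrix. The synthases sit in the plasma membrane, extend the chain from UDP-sugars of the cytosol and push it out of the cell. Hyaluronidases cut it again: HYAL2 at the cell surface into fragments of intermediate size, HYAL1 in the lysosome into short ones, while the enzyme activity of HYAL3 is less clear. CD44 carries the polymer at the surface of many epithelial and tumour cells and joins it to the cytoskeleton through ezrin, radixin and moesin. Transcripts were counted here, and neither hyaluronan nor CD44 protein was measured in these tumours. In cultured A549 cells, the study reported more CD44 protein under A2M but no significant change of the CD44 transcript. It proposed that A2M might act on CD44 during or after translation rather than on transcription.

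Between 16958533 and 35874381 human reads per tumour were assigned to genes. The keratins KRT8 and KRT18 and the filament gene VIM lay between 205 and 376 RPKM (reads divided by exon length and by the total of the tumour) in all tumours, EPCAM reached up to 192 RPKM, and MSMP, a secreted protein known from PC-3 cells, lay between 8047 and 11880 RPKM. Together these 5 markers summed to 9989 to 12933 RPKM in the PBS tumours and to 9046 to 10505 RPKM in the A2M tumours (two-sided exact permutation test, p = 0.0130, adjusted p = 0.0649 over 5 marker lists). MSMP made up most of these sums, so this p mostly follows MSMP. Its log2 fold change of A2M over PBS was -0.25 (edgeR adjusted p = 0.640). Those of the other markers in this list ran from -0.14 for KRT8 to -0.07 for EPCAM. The luminal genes KLK2 and KLK3 had at most 1 count in any tumour, while TMPRSS2 lay between 10.2 and 24.4 RPKM. Of the macrophage markers, CD163 had at most 2 counts, PTPRC at most 0.357 RPKM and the 7 genes summed to 16.2 to 21.0 RPKM in PBS and 17.4 to 21.1 in A2M tumours, mostly CD68. The endothelial list of 5 genes summed to 3.64 to 5.31 and 3.44 to 5.21 RPKM, mostly PECAM1. Among fibroblast markers, DCN had at most 3 counts and LUM at most 5, and COL1A1 made up most of a sum of 54.2 to 113 RPKM in PBS and 54.1 to 156 RPKM in A2M tumours. In no list but that of PC-3 was the permutation p between the groups below 0.225. Whether reads of host cells entered any of these values was not tested.

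The levels of the 7 genes lay far apart and held nearly the same order in every tumour. Per length, CD44 was highest with a mean of 72.6 RPKM over the 11 tumours, above 96.6% of all listed genes. HAS3 followed with 27.3 and HYAL2 with 25.1 RPKM. Then came HAS2 with 14.0, HYAL3 with 6.40 and HYAL1 with 1.07 RPKM, and HAS1 was lowest with 0.0736 RPKM. Neighbours in this order were compared within each tumour by a two-sided exact sign-flip permutation test, adjusted over 6 pairs. The order was taken from these same values, so p shows only how steadily it held between tumours. In 5 of the pairs the order held in 11 of 11 tumours (adjusted p = 0.00117, from the smallest p that 11 tumours allow, 0.000977). HAS3 and HYAL2 did not differ beyond their spread: HAS3 was higher in 8 of 11 tumours, and the ratio had a mean of 1.08 and ran from 0.813 to 1.46 (exact permutation test, adjusted p = 0.180). The full order of the 7 genes was thus found in 8 tumours, and in PBS tumour T127 and A2M tumours T129 and T131 HYAL2 stood above HAS3.

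**Figure D1:**
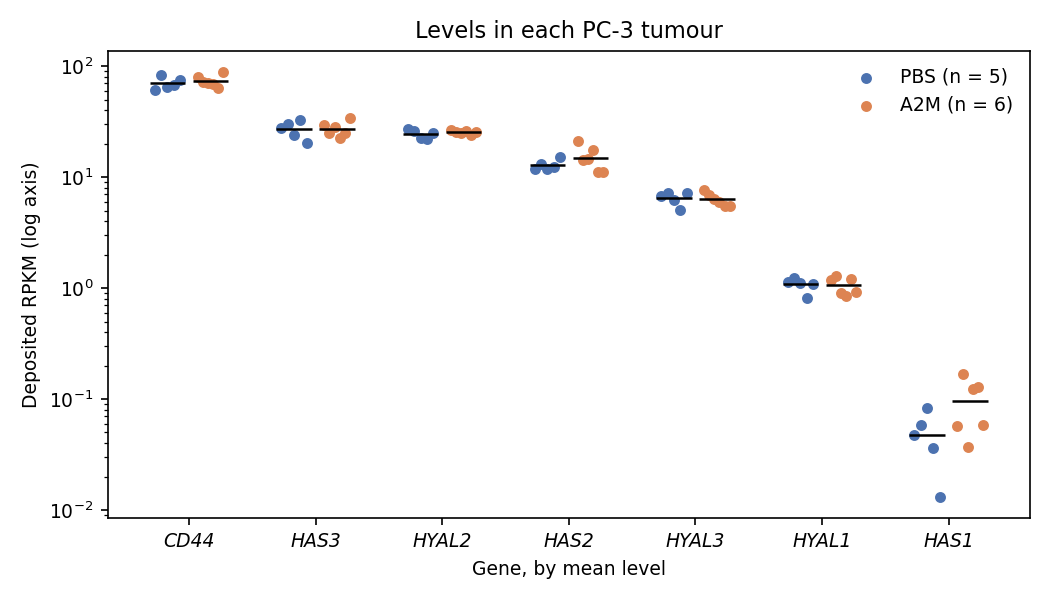
Deposited RPKM of the 7 genes in each tumour on a log axis, with 1 point per tumour (5 PBS, 6 A2M) and a black line at each group mean. The 2 groups overlap for every gene, CD44 lies between 61.7 and 88.9 RPKM, and HAS1 at or below 0.168 RPKM in every tumour.

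CD44 transcripts were abundant in both groups, and the difference between the groups was smaller than the spread between tumours. CD44 lies on the plus strand of chromosome 11 (GRCh37, chr11:35160429-35253949) and has 21 separate exon blocks in the annotation. In PBS tumours T123 to T127 its level was 61.7, 83.7, 65.3, 67.7 and 75.4 RPKM, a mean of 70.8 ± 8.80 (SD, n = 5). The A2M tumours T128 to T132 and T112 had 80.3, 71.6, 70.2, 69.6, 64.1 and 88.9 RPKM, a mean of 74.1 ± 8.91 (SD, n = 6). A2M tumour T112 was above every PBS tumour and PBS tumour T123 below every A2M tumour, and the other 9 tumours lay in the common range. On the counts, between 8112 and 19070 per tumour, the log2 fold change of A2M over PBS was 0.02 (SE 0.11, 95% interval -0.21 to 0.25, quasi-likelihood test of edgeR, adjusted p = 0.979). This interval runs from 0.865-fold to 1.19-fold. Of the 16630 genes tested, 0% passed the adjusted p threshold of 0.01 by this test and 7.08% had an unadjusted p under 0.05. DESeq2 and the classic exact test of edgeR each passed 1 gene, REP15, which is none of the genes described here.

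CD44 pre-mRNA is spliced in many ways, and the variable exons of the middle of the gene can be put into the stem of the receptor or left out. A count per gene adds all these forms, with a length of 6678 bases over all annotated exons in the deposited RPKM, so a shift between forms cannot be read from these tables. The study reported from RT-PCR that A2M brought about no shift between CD44 forms in vitro or in vivo. Whether PC-3 tumours were among those examined is not stated there. The stretch in question is shown by the primer pair that the study designed for CD44 forms, whose ends stand in the exons on either side of the variable block. Both primers are given 5′ to 3′, in lower case as no part is singled out.
CD44 forms forward: tcccagacgaagacagtccctggat
CD44 forms reverse: cactggggtggaatgtgtcttggtc
Matched to the transcripts of the annotation, the forward primer lies at chr11:35211556-35211580 and the reverse one at chr11:35236401-35236425 (GRCh37). The predicted product is 84 bases in 3 annotated transcripts, the shortest, and up to 1227 bases in the transcript with the longest insert. In the GENCODE annotation, the antisense RNAs CD44-DT and CD44-AS1 share 70 and 84 exon bases with CD44 on the opposite strand. They have no row in the tables, and the library kit does not mark the strand.

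Synthase transcripts came from HAS3 and HAS2, and HAS1 was barely detected. HAS3, on chromosome 16 (GRCh37, chr16:69139556-69152622, plus strand), makes shorter chains than the other synthases in test systems. Its level in PBS tumours T123 to T127 was 28.0, 30.4, 23.8, 32.6 and 20.4 RPKM, and in A2M tumours T128 to T132 and T112 it was 29.8, 25.2, 28.2, 22.5, 25.1 and 34.0 RPKM. The group means of 27.1 ± 4.93 (SD, n = 5) and 27.5 ± 4.09 (SD, n = 6) RPKM lay closer together than the tumours within either group. The log2 fold change was -0.02 (SE 0.13, 95% interval -0.29 to 0.26, edgeR adjusted p = 0.987), and its sign turned to 0.02 when counts were scaled by library size alone. In the GENCODE annotation, the 3′ end of HAS3 shares 365 bases with CHTF8 on the opposite strand. Whether this overlap is also in RefSeq, used for the counts, was not tested. CHTF8 had 24.0 ± 1.27 (SD, n = 5) RPKM in PBS and 26.3 ± 1.37 (SD, n = 6) in A2M tumours, a log2 fold change of 0.09 (edgeR adjusted p = 0.827), and without strand the reads of the common stretch cannot be assigned to either gene.

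HAS2, which makes long chains and is the synthase needed for heart development in mice, had the log2 fold change farthest from 0 among the 6 tested genes described here, a rank that it lost without A2M tumour T128 or PBS tumour T126. It lies on the minus strand of chromosome 8 (GRCh37, chr8:122624356-122653680). PBS tumours T123 to T127 had 11.9, 13.0, 11.9, 12.3 and 15.1 RPKM, and A2M tumours T128 to T132 and T112 had 21.3, 14.2, 14.6, 17.7, 11.2 and 11.1 RPKM. A2M tumours T128 and T131 lay above all PBS tumours and tumours T132 and T112 below all of them, so that the A2M group held both ends of the range. Its mean was 15.0 ± 3.93 (SD, n = 6) RPKM against 12.8 ± 1.35 (SD, n = 5) in the PBS group. The log2 fold change was 0.18 (SE 0.15, 95% interval -0.15 to 0.51, edgeR adjusted p = 0.865), which spans 0.903-fold to 1.42-fold. Without A2M tumour T128 it was 0.05, beside -0.15 for HYAL3, and without PBS tumour T126 it was 0.16, beside -0.17 for HYAL1. In GENCODE, the antisense RNA HAS2-AS1 shares 251 exon bases with HAS2. HAS2-AS1 had 28 to 79 counts per tumour and a log2 fold change of 0.06 (SE 0.21, edgeR adjusted p = 0.970).

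HAS1 on chromosome 19 (GRCh37, chr19:52216365-52227244, minus strand) had too few reads for the test. In PBS tumours T123 to T127 it had 3, 4, 6, 2 and 1 counts, and in A2M tumours T128 to T132 and T112 it had 4, 6, 2, 7, 6 and 4 counts. In 4 of the 11 tumours the count was at or under 3, the amount taken as the limit of detection, equal to 0.0836 to 0.177 RPM (reads scaled to the total of the tumour) at these depths. Scaled in this way, HAS1 was 0.0279 to 0.174 RPM in PBS and 0.0779 to 0.354 RPM in A2M tumours, and 3 of the 6 A2M tumours lay above all PBS tumours (two-sided exact permutation test, p = 0.0974). Fitted without the count filter, its log2 fold change was 0.82 (SE 0.47, 95% interval -0.19 to 1.83, edgeR adjusted p = 0.811).

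The promoters of the most and the least abundant synthase are shown because the 2 genes encode the same kind of enzyme at very different transcript levels. Each window runs from 250 bases before to 50 bases after the RefSeq transcript start, 5′ to 3′ in the direction of transcription, from GRCh38.p14 (chr16:69107290-69107589, plus strand, for HAS3 and chr19:51723942-51724241, minus strand, for HAS1). Capitals mark matches, on either strand, to the GC box GGGCGG, the E-box CACGTG and the cAMP response element TGACGTCA.
HAS3 promoter: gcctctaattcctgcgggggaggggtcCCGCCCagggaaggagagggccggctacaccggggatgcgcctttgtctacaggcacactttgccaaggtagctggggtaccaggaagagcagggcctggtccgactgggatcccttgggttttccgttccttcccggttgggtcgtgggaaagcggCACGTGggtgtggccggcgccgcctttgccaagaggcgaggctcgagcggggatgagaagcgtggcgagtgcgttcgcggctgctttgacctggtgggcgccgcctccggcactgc
HAS1 promoter: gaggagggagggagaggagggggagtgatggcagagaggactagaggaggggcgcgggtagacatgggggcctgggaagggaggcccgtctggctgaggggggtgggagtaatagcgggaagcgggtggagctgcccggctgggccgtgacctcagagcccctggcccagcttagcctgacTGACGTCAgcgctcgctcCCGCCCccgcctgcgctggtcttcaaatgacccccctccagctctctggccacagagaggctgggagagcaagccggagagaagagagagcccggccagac
Both windows are rich in G and C, 67% in HAS3 and 68.3% in HAS1, and each has 1 GC box, a motif with at least 1 match in 45% of 35116 promoter windows. The HAS3 window has 1 E-box, found in 7.26% of windows, and the HAS1 window has 1 cAMP response element, found in 1.85%. Neither window holds the TATA box TATAAA (11.5% of windows) or the AP-1 motif TGANTCA (7.71%). The matches are letters in a window, and binding was not measured. Each window stands at an annotated start, and whether these tumours use that start or another was not tested.

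The hyaluronidase genes stand side by side on chromosome 3, and HYAL2 made up most of their transcripts. HYAL3 (chr3:50330262-50336836), HYAL1 (chr3:50337321-50349812) and HYAL2 (chr3:50355221-50360213) follow each other on the minus strand of GRCh37 within 29952 bases, 484 bases apart between HYAL3 and HYAL1 and 5408 bases apart between HYAL1 and HYAL2. HYAL2, anchored in the membrane by a lipid, had 27.1, 26.1, 22.6, 22.3 and 25.1 RPKM in PBS tumours T123 to T127 and 26.7, 25.5, 25.0, 25.9, 24.1 and 25.6 RPKM in A2M tumours T128 to T132 and T112. It was the steadiest of the genes described: the SD of its log2 level within groups was 0.0965, and 11.4% of the tested genes had a smaller one. All 6 A2M tumours lay inside the range of the PBS tumours. The log2 fold change was 0.0055 (SE 0.07, 95% interval -0.14 to 0.15, edgeR adjusted p = 0.993), the narrowest interval of the 6 tested genes, from 0.910-fold to 1.11-fold.

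HYAL1, the lysosomal enzyme, had 62 to 119 counts per tumour. Its level was 1.15, 1.24, 1.10, 0.807 and 1.10 RPKM in PBS tumours T123 to T127, and 1.17, 1.30, 0.911, 0.856, 1.22 and 0.918 RPKM in A2M tumours T128 to T132 and T112. The means were 1.08 ± 0.163 (SD, n = 5) and 1.06 ± 0.189 (SD, n = 6) RPKM, and the log2 fold change was -0.08 (SE 0.15, 95% interval -0.41 to 0.25, edgeR adjusted p = 0.945). HYAL3 had 6.78, 7.16, 6.26, 5.04 and 7.22 RPKM in PBS tumours T123 to T127 and 7.65, 6.97, 6.35, 6.00, 5.50 and 5.47 RPKM in A2M tumours T128 to T132 and T112. PBS tumour T126 was lowest for both genes, and the groups overlapped. For HYAL3 the log2 fold change was -0.09 (SE 0.12, 95% interval -0.35 to 0.18, edgeR adjusted p = 0.923).

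In the GENCODE annotation, the genes TUSC2, IFRD2 and NAT6 share exon bases with the hyaluronidases on the same strand. The counts rest on another annotation, RefSeq, in which HYAL2 has 2413 bases against 4421 in GENCODE. Whether the shared bases are exons of both genes there as well was not tested. Reads in bases that are could not be assigned to 1 gene. TUSC2 shares 509 bases with HYAL2 and had a log2 fold change of -0.06 (edgeR adjusted p = 0.908). IFRD2 shares 43 bases with HYAL3 and had 0.05 (edgeR adjusted p = 0.937). NAT6, also named NAA80, encodes the enzyme that acetylates actin and shares 232 bases with HYAL3. It had 10.3 ± 1.28 (SD, n = 5) RPKM in PBS and 8.67 ± 1.03 (SD, n = 6) in A2M tumours, with overlap between 8.33 and 10.1 RPKM and a log2 fold change of -0.30 (SE 0.11, edgeR adjusted p = 0.642). How the authors' counting treated shared bases is not given in the sources used here.

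The promoters of HYAL2 and HYAL1 are shown as the most and the least abundant gene of this cluster, in the same way and from the same build (chr3:50322696-50322995 for HYAL2 and chr3:50303525-50303824 for HYAL1, both minus strand). Capitals mark the GC box on either strand.
HYAL2 promoter: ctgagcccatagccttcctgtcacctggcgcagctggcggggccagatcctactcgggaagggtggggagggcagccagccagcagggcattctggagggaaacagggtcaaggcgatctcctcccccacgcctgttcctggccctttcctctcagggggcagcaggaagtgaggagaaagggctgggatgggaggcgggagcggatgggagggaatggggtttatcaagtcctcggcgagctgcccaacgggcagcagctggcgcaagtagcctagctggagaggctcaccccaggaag
HYAL1 promoter: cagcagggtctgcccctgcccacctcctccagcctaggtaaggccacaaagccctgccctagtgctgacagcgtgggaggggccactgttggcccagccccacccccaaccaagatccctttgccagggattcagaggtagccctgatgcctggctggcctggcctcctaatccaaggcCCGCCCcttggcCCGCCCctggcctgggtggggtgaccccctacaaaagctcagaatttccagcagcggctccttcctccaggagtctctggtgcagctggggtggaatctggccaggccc
The HYAL1 window has 2 GC boxes and the HYAL2 window none, at 65.7% and 65% G and C. In neither window was there an E-box, a cAMP response element, a TATA box or an AP-1 match. Each window stands at an annotated RefSeq start, and whether these tumours use that start or another was not tested.

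Summed by family, transcripts of HAS1 to HAS3 exceeded those of HYAL1 to HYAL3 in all 11 tumours. The sum of HAS1 to HAS3 was 39.9 ± 4.32 (SD, n = 5) RPKM in PBS and 42.6 ± 5.12 (SD, n = 6) in A2M tumours, and that of HYAL1 to HYAL3 was 32.2 ± 3.0 (SD, n = 5) and 32.9 ± 1.62 (SD, n = 6). Within a tumour the hyaluronidase sum minus the synthase sum ran from -16.8 in PBS tumour T126 to -2.10 in PBS tumour T127, both ends in the PBS group. It had a mean of -7.74 ± 5.65 (SD, n = 5) RPKM in PBS and -9.71 ± 4.09 (SD, n = 6) in A2M tumours (two-sided exact permutation test, p = 0.513, adjusted p = 0.688 over 7 family measures). HAS3 made up 67.3% ± 5.89 (SD, n = 5) of the synthase sum in PBS and 64.6% ± 7.12 (SD, n = 6) in A2M tumours, with the lowest share, 55.7%, in A2M tumour T131 and the highest, 75.3%, in A2M tumour T112 (exact permutation test, p = 0.50). HYAL2 made up 76.5% ± 1.72 (SD, n = 5) and 77.6% ± 1.93 (SD, n = 6) of the hyaluronidase sum (exact permutation test, p = 0.357). The sums leave out HYAL4 and the hyaluronan-degrading proteins CEMIP and TMEM2, with means of 0.458, 2.80 and 5.05 RPKM over the 11 tumours. In no tumour did they fall below 0.324 (HYAL4), 1.81 (CEMIP) and 3.89 (TMEM2) RPKM. Together these lowest levels are larger than the gap between the sums in PBS tumours T123 (-4.94 RPKM), T125 (-5.81) and T127 (-2.10). The same holds for A2M tumours T129 (-5.78) and T132 (-5.61). With these genes added, the synthase sum was thus not the larger one in those tumours. For the other tumours this was not tested. In the GENCODE annotation, HAS3 and HYAL2 also share exon bases with CHTF8 and TUSC2. Sums of transcripts say nothing of the activity of the enzymes.

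**Figure D2:**
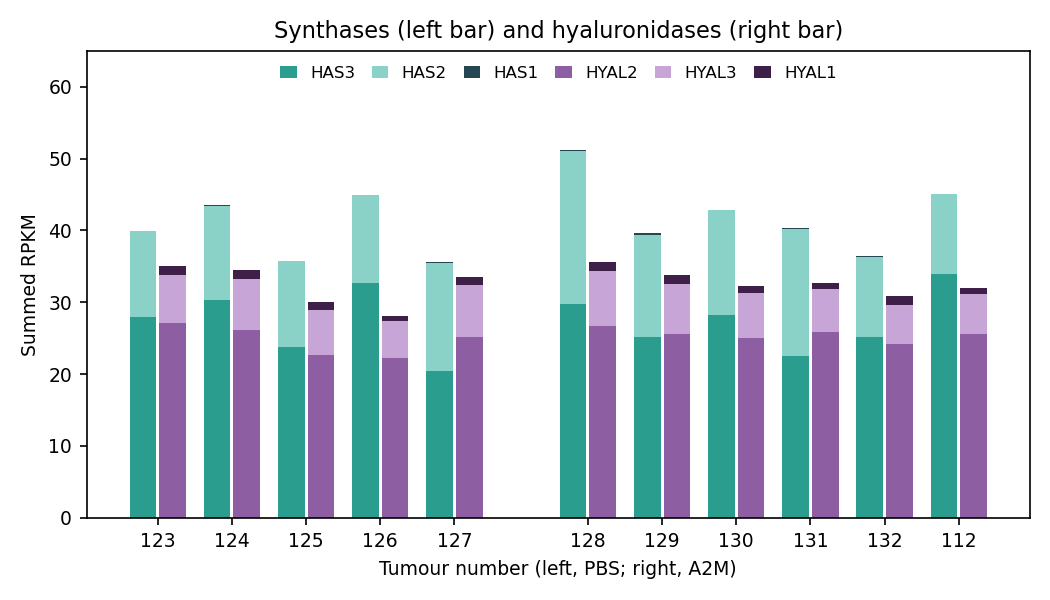
RPKM of HAS1 to HAS3 (left bar of each pair) and of HYAL1 to HYAL3 (right bar) stacked in each tumour. The 5 PBS tumours stand on the left and the 6 A2M tumours on the right. The left bar is the taller one in 11 of 11 pairs, HAS3 and HYAL2 take the largest part of their bars, and HAS1 is too low to be seen in most.

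The 6 tested genes had log2 fold changes between -0.09 and 0.18, 3 above and 3 below 0, with a median of -0.0060, beside a median of -0.0021 over all genes tested. Of these 6 genes, 0 passed the threshold, 0 had an unadjusted p under 0.05 and 0 had groups that did not overlap, beside 0.71% of all tested genes whose groups did not overlap in CPM (counts scaled to the library total with TMM factors). In the levels of the 7 genes and in the family sums, Dixon's test at its 95% limit picked out no tumour. Over 22 groups of values it picked out 0, where chance gives 1.1. With only 5 or 6 values in a group, the test can pick out only a wide gap.

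**Figure D3:**
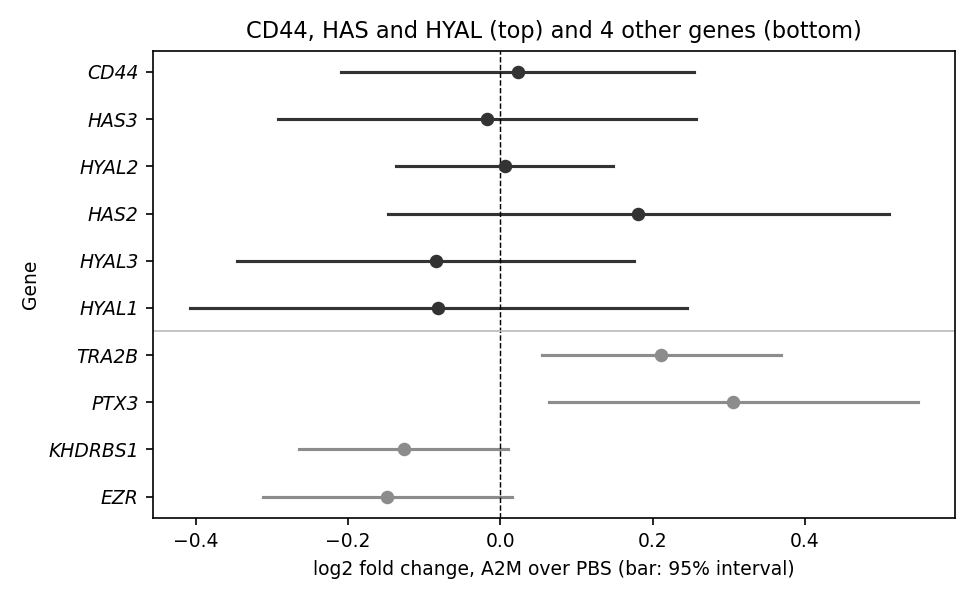
Log2 fold change of A2M over PBS with its 95% interval from the quasi-likelihood fit of 11 tumours, for the 6 tested genes described here (top, dark) and for the 4 other genes of the hyaluronan system with the smallest p, 2 in each direction (bottom, grey). The intervals of the 6 genes all hold 0, and those of TRA2B and PTX3 do not, at edgeR adjusted p of 0.640 and 0.642.

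The genes were also compared with each other over the tumours, on log2 CPM centred within each group, for the 15 pairs of the 6 tested genes. None passed the adjusted p of 0.05. The largest coefficient was that of HYAL2 and HYAL3, with Pearson's r = 0.76 (exact permutation inside groups, p = 0.00719, adjusted p = 0.108) and Spearman's rho = 0.78 (exact permutation p = 0.00406, adjusted p = 0.0609) over 11 tumours, and r was 0.47 without the 2 tumours farthest from the median of HYAL2. HYAL1 and HYAL3 had r = 0.69 (exact permutation p = 0.0363, adjusted p = 0.181) and rho = 0.59 (exact permutation p = 0.0795, adjusted p = 0.397), with r = 0.46 without 2 tumours. For HAS2 and HYAL3, on different chromosomes, r was 0.65 (exact permutation p = 0.0266, adjusted p = 0.181) and rho 0.67 (exact permutation p = 0.0393, adjusted p = 0.295), with r = 0.41 without 2 tumours. HAS2 and HAS3 had r = -0.26 (exact permutation p = 0.450, adjusted p = 0.750) and rho = -0.28 (exact permutation p = 0.413, adjusted p = 0.619), with r = -0.77 without tumours T128 and T132, so the coefficient moved with those tumours. CD44 had coefficients between r = 0.16 with HYAL1 and r = 0.50 with HYAL2 (exact permutation p = 0.150, adjusted p = 0.383, rho = 0.42, exact permutation p = 0.220, adjusted p = 0.488). These also moved without 2 tumours, T112 and T124: from 0.23 to 0.83 with HAS2, from 0.37 to 0.65 with HYAL3, from 0.50 to 0.31 with HYAL2 and from 0.44 to -0.09 with HAS3. The labels name no batch, and no value within batches could be given.

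Among the other 16629 tested genes, those most like CD44 over the 11 tumours, by Pearson's r of centred log2 CPM, were MALL (r = 0.96), EMR2 (r = 0.95), HGSNAT (r = 0.95) and ATG13 (r = 0.94). MALL encodes a membrane raft protein, EMR2 an adhesion receptor, HGSNAT a lysosomal enzyme of heparan sulfate breakdown and ATG13 an autophagy factor. MALL had a mean of 76.4 RPKM, close to that of CD44, and EMR2 one of 2.10 RPKM. The gene most like HAS2 was LINC00942 (r = 0.93), that most like HAS3 was the phosphate transporter SLC20A1 (r = 0.95), and those most like HYAL1, HYAL2 and HYAL3 were the myosin chaperone UNC45A (r = 0.97), the ubiquitin-conjugating enzyme UBE2L3 (r = 0.96) and UBL4A (r = 0.96). These are the highest coefficients out of many and are given as a description.

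The rest of the hyaluronan system was taken from 7 lists with 61 genes in the tables, of which 46 had enough reads for the test. Of these, 0 passed the adjusted threshold, 2 had an unadjusted p under 0.05, 18 had a log2 fold change above 0 and 28 below, and 0 had groups that did not overlap. Over all 16630 genes tested, 0% passed, 7.08% had an unadjusted p under 0.05, 8220 were above 0 and 8410 below, and in 0.71% the groups did not overlap. The median log2 fold change was -0.04 over the 46 genes and -0.0021 over all.

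Sugar nucleotide enzymes, which supply the synthases, were all expressed: 7 of 7 were tested, with a median log2 fold change of -0.01. UGP2, which makes UDP-glucose, had the highest level with a mean of 47.1 RPKM, and UGDH, which turns UDP-glucose into UDP-glucuronic acid, had 19.2 RPKM and a log2 fold change of -0.08 (SE 0.09). GFPT2, an isoform of the first enzyme of the hexosamine pathway, differed most, by 0.39 (SE 0.20, edgeR adjusted p = 0.739), while GFPT1 had -0.05 (SE 0.07).

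Other enzymes of hyaluronan breakdown were in part expressed, with 5 of 8 tested and a median of -0.06. GUSB, a lysosomal glycosidase that trims hyaluronan fragments, had a mean of 40.4 RPKM and a log2 fold change of -0.06 (SE 0.08). HEXA, which encodes a lysosomal hexosaminidase subunit, had at most 1 count in any tumour, and why it is so low in these tables was not tested. CEMIP and TMEM2, hyaluronan-degrading proteins of another family, had 2.80 and 5.05 RPKM and log2 fold changes of 0.15 (SE 0.16) and 0.02 (SE 0.13). HYAL4 had 0.458 RPKM, and SPAM1, the sperm hyaluronidase, at most 1 count.

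Of the other hyaluronan receptors, 4 of 7 were tested, with a median of 0.20. HMMR, a mitotic protein that also binds hyaluronan, was highest with 7.64 RPKM and a log2 fold change of 0.09 (SE 0.19), and TLR2 had 4.80 RPKM and -0.19 (SE 0.14). STAB1 and TLR4 had at most 42 and 27 counts and log2 fold changes of 0.59 (SE 0.47) and 0.32 (SE 0.37). LYVE1, the receptor of lymph vessels, had at most 1 count, so that CD44, at 72.6 RPKM, was the most abundant hyaluronan receptor transcript of those listed.

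Hyaluronan-binding matrix proteins were mostly low, with 9 of 18 tested and a median of -0.07. PTX3, a pentraxin that helps to cross-link hyaluronan, was the exception in level, at a mean of 65.2 RPKM. PBS tumours T123 to T127 had 59.0, 64.2, 49.5, 59.1 and 51.8 RPKM of PTX3, and A2M tumours T128 to T132 and T112 had 66.0, 63.0, 75.5, 84.8, 57.0 and 87.1 RPKM. Of the A2M tumours, 4 lay above all PBS tumours and the other 2 within their range. The log2 fold change was 0.31 (SE 0.11, edgeR adjusted p = 0.642). TNFAIP6, the partner of PTX3 in cross-linking, had 19 to 108 counts per tumour and a log2 fold change of 0.55 (SE 0.40, edgeR adjusted p = 0.840). The proteoglycans VCAN and BCAN had 0.501 and 0.573 RPKM, and ACAN at most 1 count.

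Linkers and ligands of CD44 were all tested, 10 of 10, with a median of -0.06. MSN (moesin) had the highest level with a mean of 204 RPKM and a log2 fold change of 0.08 (SE 0.12), followed by EZR (ezrin) with 141 RPKM, while RDX (radixin) had 34.5 RPKM and 0.02 (SE 0.09). EZR ran from 139 to 156 RPKM in PBS and from 116 to 149 RPKM in A2M tumours, of which 4 lay below all PBS tumours, and its log2 fold change was -0.15 (SE 0.08, edgeR adjusted p = 0.743). LRP1, the receptor of A2M, had a mean of 39.4 RPKM and a log2 fold change of -0.03 (SE 0.15), and LRPAP1, its chaperone, had 8.90 RPKM and -0.08 (SE 0.08). The osteopontin gene SPP1 had 2 to 33 counts per tumour and a log2 fold change of -0.83 (SE 0.49, edgeR adjusted p = 0.781).

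The proteases that cleave CD44 were high in these tumours, with 5 of 5 tested and a median of -0.05. MMP14, a membrane-bound metalloproteinase, had a mean of 248 RPKM and ran from 158 to 365, and MMP9 had 149 RPKM and ran from 77.3 to 245. Their log2 fold changes were 0.08 (SE 0.19) and -0.10 (SE 0.28). The sheddases ADAM10 and ADAM17 had 15.5 and 18.4 RPKM.

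Among the factors known to act on CD44 splicing, 6 of 6 were tested, with a median of -0.00087. SRSF1 had the highest mean level, 56.6 RPKM, and a log2 fold change of 0.11 (SE 0.07). ESRP1, which promotes the variable exons in epithelial cells, had 53.8 RPKM and 0.02 (SE 0.08). TRA2B was 32.3, 31.0, 31.0, 37.8 and 28.7 RPKM in PBS tumours T123 to T127 and 39.8, 35.1, 40.8, 41.7, 34.9 and 37.8 RPKM in A2M tumours T128 to T132 and T112. All A2M tumours but 2 lay above all PBS tumours, and PBS tumour T126 reached into their range. Its log2 fold change of 0.21 (SE 0.07) had the smallest p of the 46 genes, and with PTX3 it was 1 of the 2 under 0.05 unadjusted (edgeR adjusted p = 0.640). KHDRBS1 (Sam68) had a log2 fold change of -0.13 (SE 0.06, edgeR adjusted p = 0.732).

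**Figure D4:**
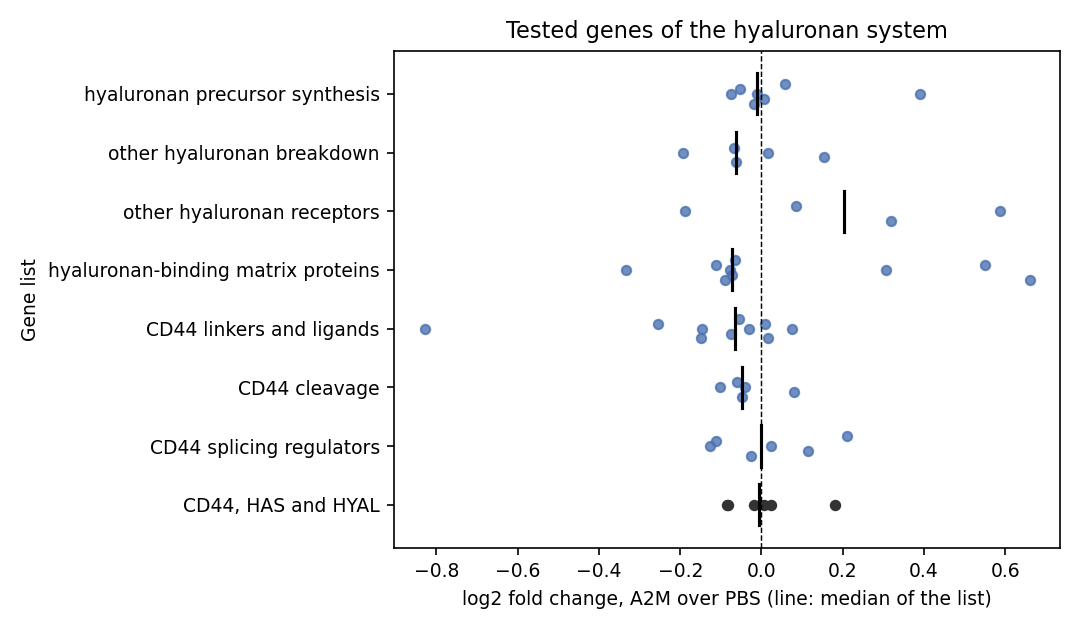
Log2 fold change of A2M over PBS for the 46 tested genes of 7 lists (1 point per gene, blue) and for the 6 tested genes described here (black), with a line at each median. No point passed the adjusted threshold, and the points farthest from 0 are genes with few counts, such as SPP1 at -0.83 and ITIH2 at 0.66.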

How the data were processed

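RNA of 11 PC-3 tumours was sequenced as single reads from TruSeq libraries. The authors used bcl2fastq 1.8.4, kept reads that xenome assigned to human, mapped them to hg19 with TopHat2 and summarised them over RefSeq genes with featureCounts, whose strand setting is not given in the sources used here. The deposited counts are raw. The authors also deposited RPM, each count scaled to the total of its tumour, and RPKM, the RPM divided by exon length. Totals, 16958533 to 35874381 per tumour, limit low genes such as HAS1.

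The counts of the 16630 genes that filterByExpr kept were scaled with TMM and entered the edgeR 4.0.16 quasi-likelihood test (R 4.3.3), with a Benjamini-Hochberg adjusted p under 0.01 as a call and the standard error as the log2 fold change over the root of F. Simulated data with 200 changed genes served as a check of the script. Log2 CPM used a prior count of 2. Sums were compared by exact permutation of the group labels, smallest p 0.00216, and pairs of genes by 86400 permutations inside groups. Alternatives were DESeq2 1.42.0, limma-voom 3.58.1, the classic exact test, other scalings, filters and thresholds, and leaving out tumours.

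The genes and lists were chosen with earlier results of these data known. Named were all 7 genes and the markers. From the lists came the highest gene by mean RPKM of each and the 2 genes per direction whose p was lowest, and by likeness the 5 genes closest to CD44 and the 1 closest to each other tested gene. Some of the genes so chosen are not reported here. The rest, such as NAT6 and REP15, were named after their values were seen. Each tumour is 1 library under its own number. Nothing else in the labels says that tumours of a group came from separate mice, so p-values measure the spread between these samples. Positions and exon overlaps are from GENCODE on GRCh37, promoters from RefSeq on GRCh38.p14 and primers from the study's list. Python 3.11.15, scipy 1.17.1 and matplotlib 3.10.9 were used.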

Additional observations from a re-analysis of the deposited data

How the results depend on the processing

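Over all genes, 0 passed with edgeR's quasi-likelihood fit, and 1178 had an unadjusted p under 0.05. DESeq2 passed 1 gene, the classic exact test of edgeR 1 and limma-voom 0. By the unadjusted rule of 0.01 in edgeR together with DESeq2 241 genes passed, a rule without adjustment. Leaving out any tumour left the count at 0. Of the hyaluronan system genes with the 7 genes, 0 passed under all these settings. When tumours were left out one by one, the log2 fold change of CD44 lay between -0.040 and 0.10, that of HAS3 between -0.10 and 0.049 and that of HYAL2 between -0.035 and 0.037, and their signs turned without T123, T126, T128 or T112 (CD44), without T124, T126, T129, T131 or T132 (HAS3) and without T125, T126 or T128 (HYAL2). With library size only, HAS3 was at 0.023. Under the same omissions HAS2 lay between 0.05 and 0.25, HYAL1 between -0.17 and -0.01 and HYAL3 between -0.17 and -0.04. Of 190 values for the 6 tested genes and TRA2B, PTX3, KHDRBS1 and EZR, 177 kept sign and side of the threshold and 13 changed sign, in 3 genes. The family difference lay between -9.49 and -8.01 RPKM over all tumours, -9.15 and -5.46 in PBS and -10.5 and -8.54 in A2M tumours under these omissions. HAS1 could be fitted only without the filter. No paired analysis was possible because the groups share no tumour numbers.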
